A study of Homo sapiens with 16 samples.

Results

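The genes described here are those of the proteasome, selected by symbol: every gene whose name consists of PSM, a letter from A to G and a number, leaving out the inducible subunits PSMB8, PSMB9 and PSMB10 and the activator subunits PSME1 and PSME2. The count table held 43 such symbols, and 39 of them were among the 10566 genes that passed the expression filter. Of the 39, 12 encode the core particle, 17 the regulatory particle and 10 accessory factors. Apart from that filter on the counts, the selection used the symbols and no difference between groups.

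Their mRNA was measured by BRB-seq, which counts reads from the 3′ ends of polyadenylated transcripts, in spheroids of 3 human prostate cancer cell lines. LNCaP cells need androgen to grow and are inhibited by the antiandrogen drug enzalutamide, 22Rv1 cells react to androgen yet withstand that drug, and PC3 cells grow independently of androgen. Cells were transfected with 25 pmol of siRNA, either a pool that targets the Mediator subunit MED12 (siMED12) or a control pool without a target (siCtrl), and were kept for 3 days in 2D culture and then for 4 days as spheroids. Each line had 3 siCtrl libraries, LNCaP had 3 siMED12 libraries, and 22Rv1 and PC3 had 2 each (replicates 1 and 3). Every library thus came from transfected cells, an untransfected control was not analysed here, and each line stands for a single model.

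The proteasome degrades proteins that carry a ubiquitin chain. Its barrel-shaped core particle is built of outer rings of alpha subunits, which gate the entrance, and inner rings of beta subunits, of which PSMB5, PSMB6 and PSMB7 carry the peptidase sites. The regulatory particle caps the barrel: a base with a ring of ATPases (PSMC genes) unfolds the substrate, the ubiquitin receptors PSMD2 and PSMD4 hold it, and the lid contains the deubiquitinase PSMD14. Chaperones assemble both particles, and the transcription factor NFE2L1 raises proteasome gene transcription when proteasome activity falls, by binding antioxidant response elements together with small MAF proteins.

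The promoters of the members were searched for short sequences that the selection did not use. RefSeq promoter sequences on GRCh38.p14, from 250 bases before to 50 after the gene start, were found for 33 of the 39 members, and both strands were searched. The core members PSMA7, PSMB1, PSMB6 and PSMB7, and PSMD4 and PSMG3, had no such sequence and were not searched. The letters TGACNNNGC, the core of the antioxidant response element, occurred in 10 of 33 (30.3%), against 15.7% of the promoters of all genes in the table and 13.6% of all promoters. They were found in 1 of 8 core members, 4 of 16 regulatory members and 5 of 9 accessory members. Shown here with those letters in capitals are PSMB3, the single core member with a match, the lid genes PSMD3 and PSMD12, and the assembly chaperone PSMG1; PSMB3 and PSMD12 were also among the extremes after siMED12. Each is written 5′ to 3′ along its gene's strand.
PSMB3, chr17:38752612-38752670, plus strand: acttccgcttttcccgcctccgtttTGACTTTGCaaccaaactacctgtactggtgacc
PSMD3, chr17:39980745-39980803, plus strand: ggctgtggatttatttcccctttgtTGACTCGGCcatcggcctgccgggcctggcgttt
PSMD12, chr17:67366709-67366767, minus strand: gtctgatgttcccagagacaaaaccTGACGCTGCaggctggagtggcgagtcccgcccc
PSMG1, chr21:39183601-39183659, minus strand: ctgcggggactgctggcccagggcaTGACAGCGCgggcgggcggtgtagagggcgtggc

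The match began 104, 37, 165 and 183 bases before the gene start in PSMB3, PSMD3, PSMD12 and PSMG1. The letters CCGGAAG, a site of the ETS family of transcription factors, were held by 9 of 16 regulatory members (56.2%), 0 of 8 core members and 3 of 9 accessory members, against 20.3% of the promoters of genes in the table. In capitals below is that site in PSMD14, PSMC6 and PSMD6, 3 regulatory members that differed widely between the lines.
PSMD14, chr2:161308396-161308452, plus strand: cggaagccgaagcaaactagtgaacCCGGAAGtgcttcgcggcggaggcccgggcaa
PSMC6, chr14:52707068-52707124, plus strand: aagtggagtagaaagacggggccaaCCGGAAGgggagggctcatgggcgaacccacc
PSMD6, chr3:64023500-64023556, minus strand: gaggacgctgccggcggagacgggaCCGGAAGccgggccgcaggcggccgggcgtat

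The CCAAT box (CCAAT) was found in 48.5% of member promoters against 37.2% of those in the table, the E-box CACGTG in 9.09% against 10.9%, and the site of the transcription factor NRF1 in 12.1% against 12.6%. A match describes the letters in the window and does not show that a factor binds there.

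Among the symbols without enough counts were 2 constitutive alpha subunits. PSMA2 had 0 counts in all 16 libraries and PSMA6 had 1, and the tissue-restricted PSMA8 and PSMB11 had 0. The pseudogene PSMA6P2, a copy of PSMA6, had 67 counts over all libraries, and PSMA2P2, a copy of PSMA2, had 4. The last 500 transcript bases of PSMA2 (chr7:42916828-42932185, GRCh38, Gencode 44) lay entirely within those of another annotated protein-coding gene on the same strand, as did 96.2% of those of PSMA6 (chr14:35278633-35317493). Both overlapping genes had 0 counts. Across the annotation, 93.7% of the 870 protein-coding genes that share at least 95% of those bases averaged at most 1 count per library, against 35.6% of the 18711 that share none. Whether the shared bases lowered the counts of PSMA2 and PSMA6 was not tested. The alpha ring is described here by 5 genes, of which PSMA1 shares 43.8% of its last bases in the same way.

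Library totals ran from 479118 to 993807 counts, and the 39 members took 0.490% to 0.846% of them. All but PSMD5, PSME4 and PSMD10 had at least 10 counts in every library. The target MED12 had 5 to 22 counts per library, and its siMED12 effect on the log2 scale was −0.50 for LNCaP, −1.28 for 22Rv1 and −0.22 for PC3 (SE 0.464, 0.455 and 0.433), which did not pass the test (adjusted p = 0.878, 0.175 and 0.987). Summed markers of the androgen-responsive lines (KLK3, KLK2, FOLH1 and STEAP2) and of PC3 matched the line labels, except that PC3 siMED12 replicate 3, the shallowest library, held 152 CPM of the former against 22.4 to 52.2 in the other PC3 libraries, and 22Rv1 siMED12 replicate 3 held 186 CPM of the PC3 markers against 87.3 to 113. Counts of members that passed the test are given below also with each library left out.

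In siCtrl spheroids the members' levels spanned 47.6-fold. Levels are CPM, counts scaled to library size with TMM factors, and since a 3′ count does not grow with transcript length, genes are compared without a length correction. As a mean of the 3 lines, the most abundant were the alpha subunit PSMA7 (710 CPM), the beta subunit PSMB1 (412 CPM) and the chymotrypsin-like catalytic subunit PSMB5 (408 CPM). The least abundant were the activator PSME4 (14.9 CPM) and the base chaperones PSMD5 (23.4 CPM) and PSMD10 (27.4 CPM). Core members ran from 77.3 (PSMA4) to 710 CPM with a median of 212, regulatory members from 34.6 (PSMD12) to 305 CPM (PSMD2) with a median of 147, and accessory members had a median of 82.9 CPM. The ranges of the particles overlapped over most of their length.

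**Figure D1:**
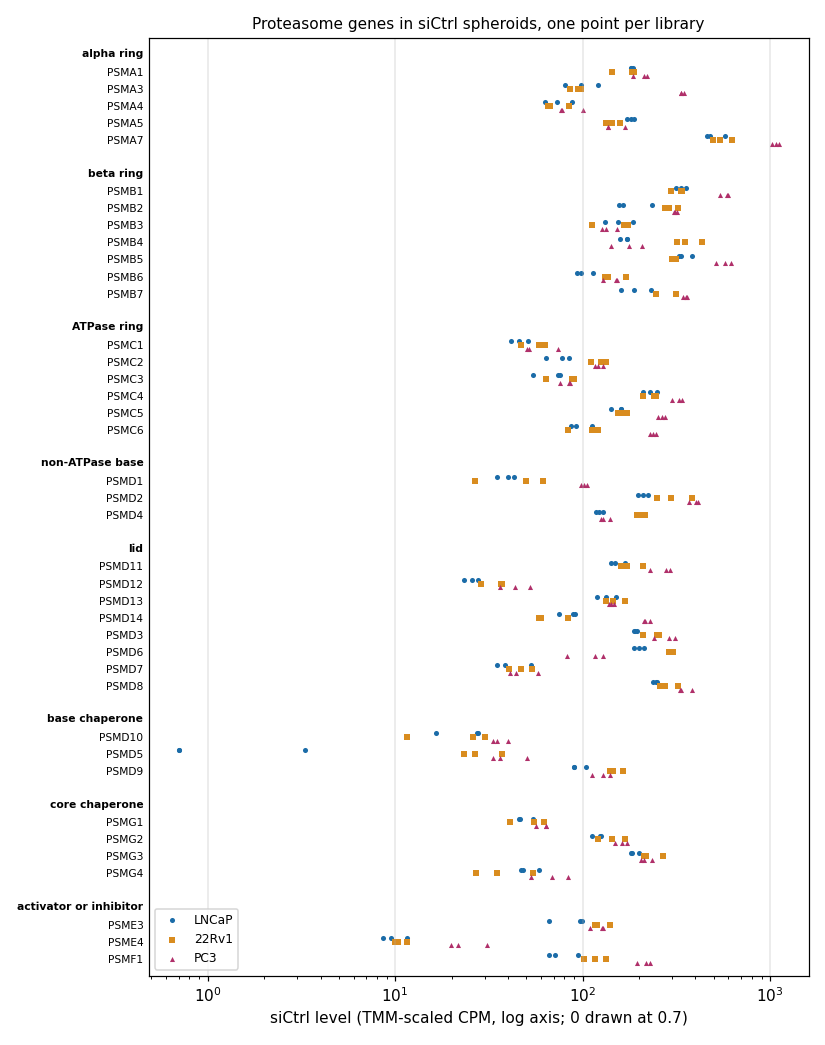
Level of each of the 39 members in the 9 siCtrl libraries (points, CPM on a log axis, coloured by line), grouped by place in the complex, with 0 CPM drawn at 0.7. PSMA7 stands at the right and PSME4 and PSMD5 at the left, and the PC3 points lie to the right of the others for PSMA3, PSMA7 and PSMD14.

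The first comparison asks whether proteasome genes differed between the control spheroids of the lines. PC3 held the highest mean level for 28 of the 39 members (71.8%, against 37.7% of all genes in the table), and LNCaP held the lowest for 28 (71.8%, against 32.8%). By the edgeR quasi-likelihood test with Benjamini-Hochberg adjustment, 24 members were higher in PC3 than in LNCaP and 1 was lower. That is 64.1% of the members, where 54.7% of all genes passed in either direction, 29.2% higher and 25.5% lower. From LNCaP to 22Rv1, 12 members were higher and 0 lower, 30.8% against a background of 43.2% (22% higher). From 22Rv1 to PC3, 16 were higher and 3 lower, 48.7% against 54.9% (28.7% higher, 26.1% lower). The libraries of the lines did not overlap for 18, 30 and 18 of the 39 members (16, 28 and 15 of them higher) from LNCaP to 22Rv1, LNCaP to PC3 and 22Rv1 to PC3, against 51.2%, 60.2% and 58.9% of all genes (26%, 31.6% and 30.8% higher). These comparisons share libraries, so they are not independent of each other. CPM is a share of each library, and more RNA per cell cannot be told apart from a larger share of cells that express a gene.

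The median member was 0.24 higher on the log2 scale in 22Rv1 than in LNCaP, 0.52 higher in PC3 than in LNCaP and 0.26 higher in PC3 than in 22Rv1, where the median of all genes was 0, 0.05 and 0.01. Core members had a median difference of −0.03 from LNCaP to 22Rv1 and 0.61 from LNCaP to PC3, with 4 and 7 of 12 higher. Regulatory members had medians of 0.25 and 0.54, with 4 and 11 of 17 higher, and accessory members 0.28 and 0.46, with 4 and 6 of 10 higher. The shares higher among all genes were 22% and 29.2%. Without LNCaP siCtrl replicate 1 the core median from LNCaP to 22Rv1 was 0.11, and no difference between particles was tested.

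**Figure D2:**
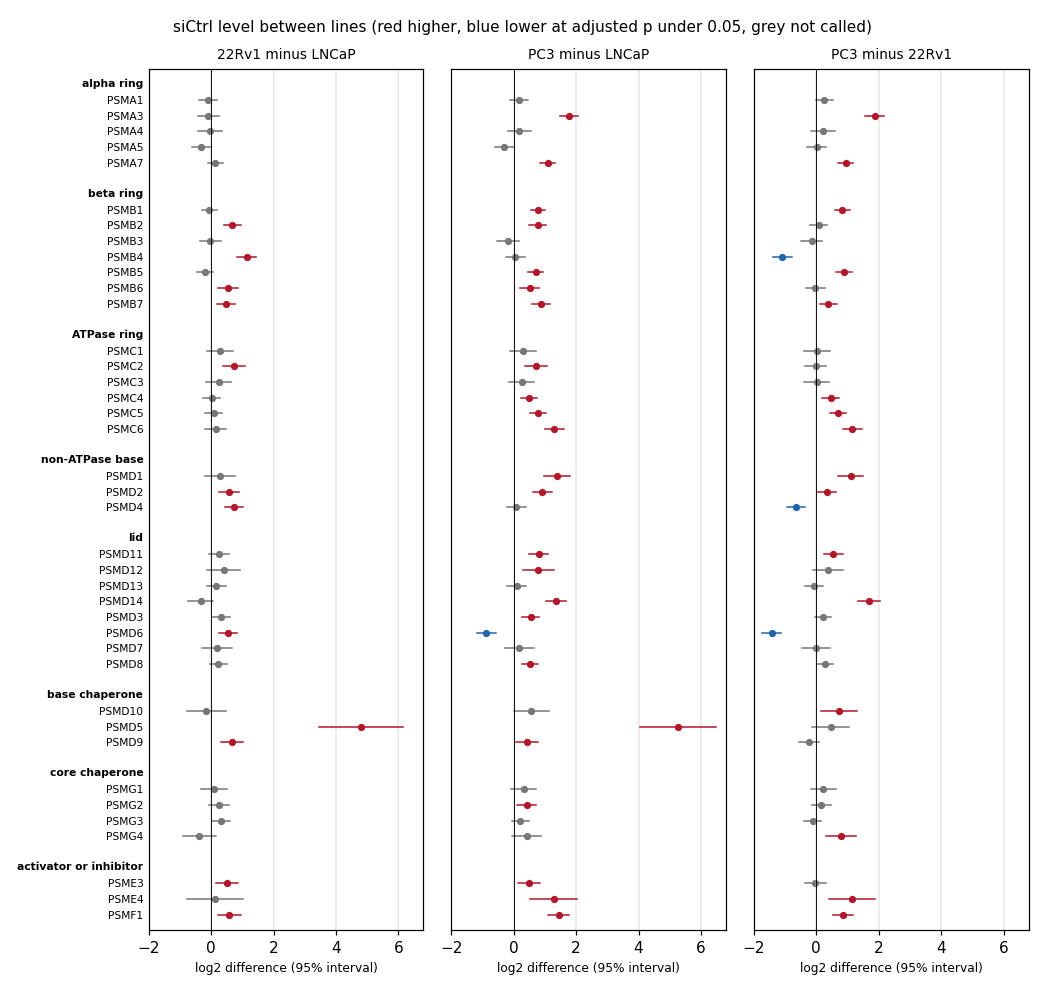
Differences in siCtrl level between lines for each member (log2 fold change with its 95% interval), in 3 panels, with members past an adjusted p of 0.05 in red (higher) or blue (lower) and the others grey. PSMA3, PSMD14 and PSMC6 lie far to the right in both PC3 panels, PSMD6 lies to the left in them, and the far PSMD5 values rest on 2 LNCaP counts and give no size.

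Summed over the measured genes, core mRNA reached 2533 ± 191 CPM in LNCaP, 2896 ± 175 CPM in 22Rv1 and 4120 ± 157 CPM in PC3 (SD, n = 3 each). Regulatory mRNA reached 2118 ± 87.3, 2619 ± 232 and 3175 ± 145 CPM. The core sum was 1.63 times as high in PC3 as in LNCaP and the regulatory sum 1.5 times. The ratio of core to regulatory mRNA was 1.20 ± 0.045 in LNCaP, 1.11 ± 0.0763 in 22Rv1 and 1.30 ± 0.0353 in PC3, and the lowest PC3 siCtrl library (1.27) lay above the highest siCtrl library of the other lines (1.24). Within the core sum, PSMA7 alone held 506 CPM in LNCaP, 554 CPM in 22Rv1 and 1071 CPM in PC3. The ratio without this gene was not computed. The higher ratio in PC3 may thus rest on PSMA7 alone and cannot be read as a result about the core as a whole.

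**Figure D3:**
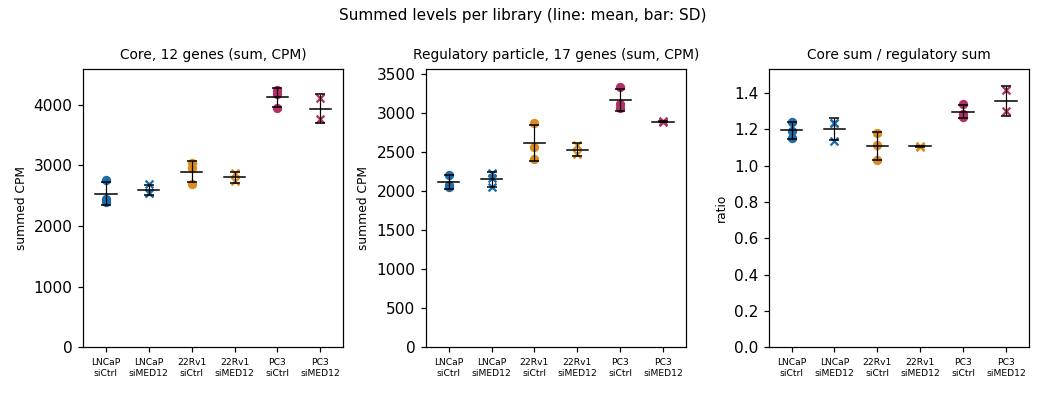
Summed CPM of the core and of the regulatory members in each of the 16 libraries, and the ratio of the sums, by line and treatment (points are libraries, long lines group means, bars SD). All PC3 libraries lie above those of LNCaP and 22Rv1 for both sums. The siCtrl and siMED12 libraries of a line overlap except for the regulatory sum in PC3. There the siMED12 libraries (2898 and 2893 CPM) lie below siCtrl (3068 to 3339 CPM).

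Within the alpha ring, 2 of 5 genes were higher in PC3, where 29.2% of all genes were higher than in LNCaP and 28.7% than in 22Rv1. PSMA3 (chr14:58244843-58272012, plus strand), an alpha subunit, measured 120.9, 80.2 and 97.5 CPM in the LNCaP libraries, 97.6, 85.2 and 94.95 CPM in 22Rv1, and 336.7, 349 and 333.8 CPM in PC3. Every PC3 library held well above the level of any library of the other lines, which overlapped. PSMA3 was higher in PC3 than in LNCaP by 1.78 on the log2 scale (SE 0.143, adjusted p = 3.2e-12) and than in 22Rv1 by 1.87 (SE 0.145, adjusted p = 1.5e-12). PSMA7 (chr20:62136733-62143440, minus strand) ran from 461 to 577 CPM in LNCaP, from 495 to 629 CPM in 22Rv1 and from 1030 to 1109 CPM in PC3. Its differences were 1.09 (SE 0.119) and 0.95 (SE 0.118), again with PC3 apart from the other lines. PSMA1, PSMA4 and PSMA5 did not pass the test between any lines.

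Of the beta ring, 5 of 7 genes were higher in PC3 than in LNCaP (29.2% of all genes), and the catalytic subunits were among them. PSMB5 (chr14:23016543-23035230, minus strand) measured 336, 381 and 325 CPM in LNCaP, 316, 299 and 303 CPM in 22Rv1 and 575, 513 and 621 CPM in PC3. PC3 lay above both other lines without overlap, by 0.71 (SE 0.119, adjusted p = 7e-06) over LNCaP and 0.89 (SE 0.121, adjusted p = 1.97e-07) over 22Rv1. PSMB7, the trypsin-like subunit, ran from 161 to 232 CPM in LNCaP, from 245 to 315 CPM in 22Rv1 and from 343 to 359 CPM in PC3, higher at each step (0.49 and 0.39). Its step from LNCaP to 22Rv1 did not pass without LNCaP siCtrl replicate 3 or 22Rv1 siCtrl replicate 1 (adjusted p = 0.075 and 0.0661), and the next step did not pass without 22Rv1 siCtrl replicate 2 or 3 or PC3 siCtrl replicate 1 (up to 0.134). PSMB6, the caspase-like subunit, was lower in LNCaP (93.1 to 114 CPM) than in 22Rv1 (132 to 170.5 CPM, 0.53 higher) and PC3 (129 to 153 CPM, 0.51 higher), and the 22Rv1 difference missed the threshold without 22Rv1 siCtrl replicate 1 (adjusted p = 0.0558).

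The structural beta subunits went different ways. PSMB4 (chr1:151399560-151401937, plus strand) measured 172, 172 and 159 CPM in LNCaP, 320.1, 351 and 434 CPM in 22Rv1 and 177, 142 and 208 CPM in PC3. Every 22Rv1 library lay above those of the other lines, which overlapped. It was higher in 22Rv1 than in LNCaP by 1.14 (SE 0.146, adjusted p = 1.41e-07) and lower in PC3 than in 22Rv1 (−1.08, SE 0.144). PSMB1 stood apart in PC3 (541 to 599.6 CPM, against 297.5 to 356 CPM in the other lines, 0.78 over LNCaP and 0.83 over 22Rv1). PSMB2 was low in LNCaP (157 to 235 CPM), with 276 to 323 CPM in 22Rv1 and 308 to 319.6 CPM in PC3 (0.69 and 0.77 higher), and PSMB3 did not pass between any lines.

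**Figure D4:**
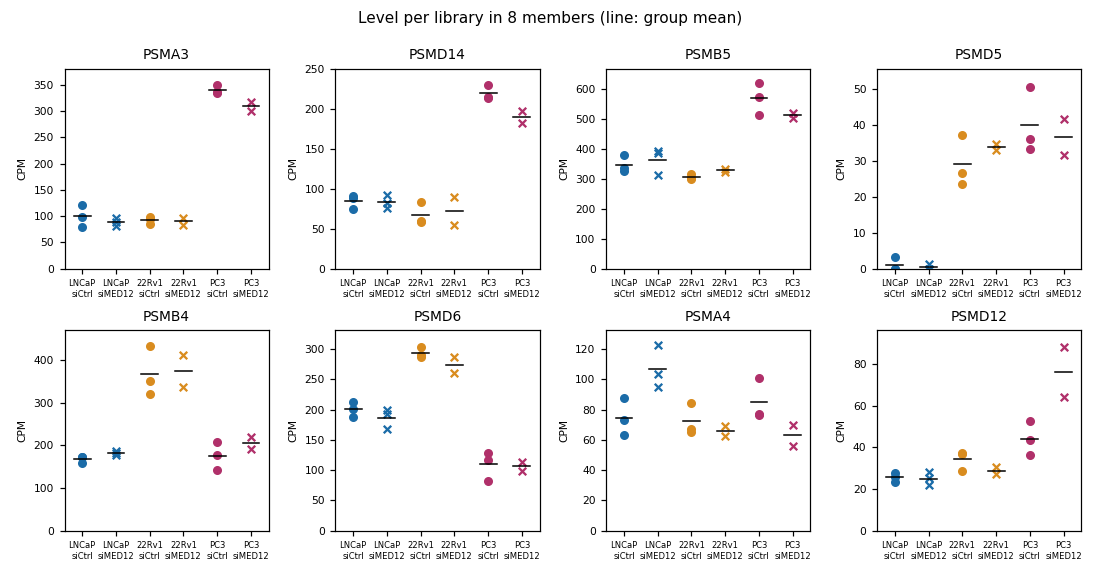
Level in CPM of selected members in each of the 16 libraries, by line and treatment (points are libraries, horizontal bars are group means). PSMA3 and PSMD14 are high in PC3, PSMB4 in 22Rv1, PSMD6 is low in PC3, and PSMD5 is near 0 in LNCaP.

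In the ATPase ring, 4 of 6 genes were higher in PC3 than in LNCaP (29.2% of all genes). PSMC6 measured 112.7, 91.7 and 86.9 CPM in LNCaP, 121, 83.6 and 111.6 CPM in 22Rv1 and 229.6, 237.6 and 245.6 CPM in PC3. PC3 held more than any library of the other lines, which overlapped, and exceeded LNCaP by 1.30 (SE 0.152, adjusted p = 1.04e-08) and 22Rv1 by 1.16 (SE 0.15). PSMC5 (252 to 276 CPM in PC3, 142 to 173 CPM elsewhere) and PSMC4 (299 to 340 CPM against 210.5 to 248.5 CPM) had the same order, with differences from LNCaP of 0.78 and 0.49. PSMC2 was instead lowest in LNCaP (63.6 to 84.5 CPM), 0.73 higher in 22Rv1 and 0.71 higher in PC3. PSMC1 and PSMC3 did not pass, and PSMC1, with 658 counts, has a processed copy, PSMC1P1, that received 329 counts, so its level is uncertain.

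The non-ATPase base genes included the ubiquitin receptors. PSMD4, a receptor that binds ubiquitin chains directly, measured 123, 129 and 118 CPM in LNCaP, 195, 202 and 216 CPM in 22Rv1 and 139, 125 and 129 CPM in PC3. It was high in 22Rv1, by 0.73 over LNCaP (SE 0.142, adjusted p = 8.46e-05), with PC3 lower than 22Rv1 (−0.64, SE 0.139) and overlapping LNCaP. PSMD2, a scaffold that also binds ubiquitin-like domains, measured 222, 209 and 198 CPM in LNCaP, 249.9, 297.5 and 384 CPM in 22Rv1 and 371.5, 411 and 404.6 CPM in PC3. PC3 exceeded LNCaP by 0.92 (SE 0.150), while 22Rv1 spread widely between them: its 0.57 over LNCaP missed the threshold without 22Rv1 siCtrl replicate 3 (adjusted p = 0.0501), and its 0.35 below PC3 missed it in DESeq2 (0.0648) and in 10 of the 16 fits with a library left out (0.0516 to 0.277, the highest without 22Rv1 siCtrl replicate 1). PSMD1, the other large scaffold, was high in PC3 (97.8 to 106 CPM, against 26.7 to 61.2 CPM elsewhere), by 1.38 over LNCaP and 1.10 over 22Rv1.

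In the lid, 5 of 8 genes were higher in PC3 than in LNCaP and 1 was lower (29.2% and 25.5% of all genes). PSMD14 (chr2:161308425-161411717, plus strand), which cuts ubiquitin chains from the substrate, measured 74.6, 88.8 and 91.2 CPM in LNCaP, 59.9, 58.5 and 83.4 CPM in 22Rv1 and 229.6, 213.4 and 215.3 CPM in PC3. PC3 was apart from both other lines, by 1.36 over LNCaP (SE 0.165, adjusted p = 2.44e-08) and 1.69 over 22Rv1 (SE 0.172, adjusted p = 6.5e-10). PSMD6 (chr3:64010550-64024010, minus strand), a structural lid subunit, measured 200.5, 187.6 and 213.1 CPM in LNCaP, 290.2, 287.5 and 304.1 CPM in 22Rv1 and 82.6, 116.7 and 128.6 CPM in PC3. None of the 3 lines overlapped: 22Rv1 exceeded LNCaP by 0.55 (SE 0.138), and PC3 was lower than LNCaP (−0.88, SE 0.151) and than 22Rv1 (−1.43, SE 0.147, adjusted p = 8.11e-10). It was the single member lower in PC3 than in LNCaP.

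PSMD3, PSMD8, PSMD11 and PSMD12, further lid subunits, were higher in PC3 than in LNCaP by 0.54, 0.52, 0.80 and 0.78, and PSMD11 also than in 22Rv1 (0.55). For PSMD12 (23.2 to 27.6 CPM in LNCaP, 36.1 to 52.6 CPM in PC3) the difference missed the threshold without PC3 siCtrl replicate 2 (adjusted p = 0.0632). PSMD7 and PSMD13 did not pass between any lines, and PSMD7 had the smallest range of line means among all members (0.15 on the log2 scale).

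Among the accessory factors the widest gap was that of PSMD5 (chr9:120815496-120842951, minus strand), a chaperone that holds the base ATPases during assembly. Its LNCaP siCtrl libraries held 2 counts in all (3.31, 0 and 0 CPM), against 63 counts in 22Rv1 (23.4, 26.7 and 37.2 CPM) and 99 in PC3 (36.1, 50.5 and 33.2 CPM). LNCaP was thus close to 0 while the other lines overlapped. The count ratio to LNCaP was 33.0 in 22Rv1 (95% exact interval 8.75 to 278) and 46.0 in PC3 (12.4 to 385), an interval that covers counting error only. The base chaperone PSMD9 was 0.67 higher in 22Rv1 than in LNCaP and 0.43 higher in PC3, the latter not in DESeq2 (adjusted p = 0.0531), over all genes with a count (0.0547) or without LNCaP siCtrl replicate 2 or 3 or PC3 siCtrl replicate 1 or 2 (0.0599 to 0.146). PSMD10, also a base chaperone, was 0.72 higher in PC3 than in 22Rv1, but not in DESeq2 (0.112), over all genes with a count (0.0568) or without 22Rv1 siCtrl replicate 3 (0.347) or PC3 siCtrl replicate 1 or 2 (0.0539 and 0.127).

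The inhibitor PSMF1 rose through the lines, from 66.3 to 94.3 CPM in LNCaP over 102 to 133 CPM in 22Rv1 to 196 to 230.2 CPM in PC3. PC3 exceeded LNCaP by 1.44 (SE 0.166, adjusted p = 8.07e-09) and 22Rv1 by 0.86, and the step from LNCaP to 22Rv1 (0.58) missed the threshold without 22Rv1 siCtrl replicate 1 (0.0593). The activator PSME4 was higher in PC3 (19.97 to 31.0 CPM, against 8.59 to 11.6 CPM in the other lines) by 1.28 over LNCaP, and by 1.15 over 22Rv1, which missed the threshold without PC3 siCtrl replicate 1 (0.057). The nuclear activator PSME3 was lower in LNCaP than in 22Rv1 (0.51) and PC3 (0.48), in both cases not without LNCaP siCtrl replicate 2 (0.115 and 0.140), nor without 22Rv1 siCtrl replicate 2 and PC3 siCtrl replicate 2, respectively (0.0734 and 0.0621). Of the core chaperones, PSMG2 was 0.42 higher in PC3 than in LNCaP (0.127 without LNCaP siCtrl replicate 3, 0.0571 without PC3 siCtrl replicate 3). PSMG4 was 0.80 higher in PC3 than in 22Rv1 with overlapping libraries (0.0921 without 22Rv1 siCtrl replicate 3), and PSMG1 and PSMG3 did not pass. In all, 29 of the 39 members (74.4%) passed the test between some pair of lines, a share close to the 76.4% of all genes that did.

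Members with the antioxidant response element core had a median difference of 0.52 from LNCaP to PC3, as did those without it, with 8 of 10 and 12 of 23 higher. For the ETS site the medians were 0.48 with it and 0.54 without it, and 7 of 12 and 13 of 21 were higher. The share higher among all genes was 29.2%. No difference between members with and without a site was tested.

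The second comparison asks whether siMED12 changed proteasome mRNA within a line. No member passed the edgeR quasi-likelihood test: 0 of 39 in LNCaP, where 0.416% of all genes passed (0.0473% higher, 0.369% lower), 0 in 22Rv1, where 1.84% did (0.994% and 0.842%), 0 in PC3, where 0% did, and 0 for the mean of the lines (0.265%, of which 0.0568% higher and 0.208% lower). At an unadjusted p under 0.05 there were 2, 2 and 1 members (5.13%, 5.13% and 2.56%), against 7.34%, 11.7% and 4.99% of all genes. DESeq2, limma on log2 CPM, the other filters and scalings, the replicate block and all 16 fits with a library left out also gave 0. The 95% intervals lay within a 2-fold change in either direction for 36 of 38 members in LNCaP, 38 of 39 in 22Rv1 and 37 of 39 in PC3, and within 1.5-fold for 29, 30 and 27. Small changes are therefore not excluded by these data.

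Effects were small in both particles. Core members had median log2 fold changes of 0.06 in LNCaP, −0.04 in 22Rv1 and −0.12 in PC3, and regulatory members −0.001, −0.07 and −0.17, against −0.004, 0.006 and −0.04 over all genes. Negative values numbered 17, 27 and 29 of 39. The share of negative values over all genes is not given here, and the median of all genes was itself negative in LNCaP and PC3. These counts are therefore not read as a result about the members. In PC3, 12 members had siMED12 libraries that did not overlap siCtrl, 11 of them lower, where 20.7% of all genes did not overlap (8.8% higher, 11.9% lower). In LNCaP there were 6, 5 of them higher, against 12.6% of all genes (5.89% higher, 6.75% lower), and in 22Rv1 6, 4 of them higher, against 26.6% (13.8% and 12.9%). Without PC3 siMED12 replicate 1 the core median in PC3 was −0.00835. The ratio of core to regulatory mRNA after siMED12 was 1.20 ± 0.0586 in LNCaP (n = 3) and averaged 1.11 in 22Rv1 and 1.36 in PC3 (n = 2 each). It was within 1 SD of siCtrl in LNCaP and 22Rv1, and the PC3 libraries (1.30 and 1.42) overlapped siCtrl. The regulatory sum in PC3 averaged 2895 CPM after siMED12 (n = 2) against 3175 ± 145 CPM in siCtrl (n = 3), without overlap. This difference between sums was not tested.

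**Figure D5:**
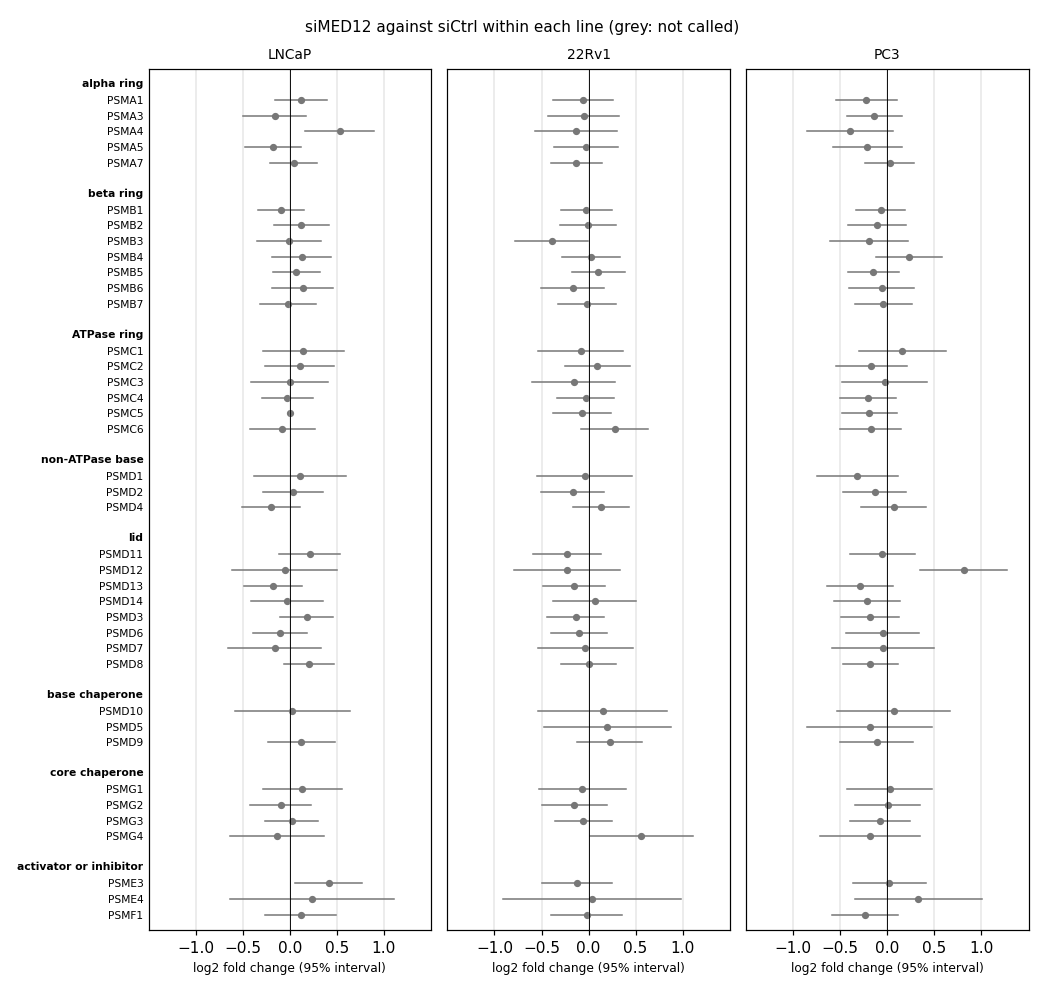
siMED12 effect on each member within each line (log2 fold change with its 95% interval), with grey for members that did not pass. PSMD5 is not drawn in LNCaP, where it had almost no counts, and PSMC5 in LNCaP has no interval because its estimate was 0; PSMA4 in LNCaP and PSMD12 in PC3 lie farthest from 0.

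The member with the highest core effect in LNCaP had the lowest one in PC3. PSMA4 (chr15:78540405-78552417, plus strand), an alpha subunit, measured 87.8, 63.0 and 73.1 CPM in LNCaP siCtrl and 95.1, 122.8 and 103.5 CPM in siMED12. In PC3 it measured 77.4, 76.8 and 101.1 CPM in siCtrl and 69.9 and 56.0 CPM in siMED12. The groups did not overlap in either line, siMED12 lying above siCtrl in LNCaP and below it in PC3, but the values did not pass adjustment (0.53, SE 0.179, adjusted p = 0.347 in LNCaP; −0.40, SE 0.222, adjusted p = 0.974 in PC3). At the other end, PSMA5 had −0.18 in LNCaP, PSMB3 had −0.39 in 22Rv1 (SE 0.191, adjusted p = 0.416), and PSMB5 and PSMB4 had the highest core values in 22Rv1 and PC3 (0.11 and 0.23).

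Among regulatory members PSMD12 (chr17:67337916-67366605, minus strand), a structural lid subunit, had the largest value. It measured 36.1, 52.6 and 43.4 CPM in PC3 siCtrl and 88.4 and 64.3 CPM in siMED12, without overlap. The effect was 0.81 (SE 0.227, unadjusted p = 0.00114, adjusted p = 0.825), and in 22Rv1 the same gene had the lowest regulatory value (−0.23). The other extremes were PSMD11 and PSMD4 in LNCaP (0.21 and −0.20), PSMC6 in 22Rv1 (0.28) and PSMD1 in PC3 (−0.32). Outside the particles, the unadjusted threshold was passed by PSME3 in LNCaP (0.41, adjusted p = 0.590) and PSMG4 in 22Rv1 (0.56, adjusted p = 0.409), and for the mean of the lines by the lid gene PSMD13 (−0.21, adjusted p = 0.527).

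The catalytic subunits and the ubiquitin-handling members had effects between −0.22 and 0.14 in every line. PSMB5 had 0.07, 0.11 and −0.15 in LNCaP, 22Rv1 and PC3, PSMB6 had 0.14, −0.17 and −0.06, and PSMB7 had −0.02, −0.02 and −0.04. The deubiquitinase PSMD14 had −0.03, 0.06 and −0.22, and the receptors PSMD2 and PSMD4 had 0.03, −0.17 and −0.14, and −0.20, 0.13 and 0.07. SEs of these values ran from 0.122 to 0.218, so none was distinguishable from 0 at this depth. No member's effect differed between lines by the interaction test either: 0 of 39 for 22Rv1 against LNCaP, PC3 against LNCaP and PC3 against 22Rv1, where 0.189% (0.104% higher, 0.0852% lower), 0.0284% and 0.0946% (0.0189% and 0.0757%) of all genes passed. At an unadjusted p under 0.05 there were 2, 2 and 1 members, and the smallest adjusted p was that of PSMD12 for PC3 against 22Rv1 (1.04, SE 0.356, adjusted p = 0.317).

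Genes that work with the proteasome were followed in lists chosen by function. Of 10 subunits and partners without a PSM symbol, 3 were higher in 22Rv1 than in LNCaP, 4 were higher and 2 lower in PC3 than in LNCaP, and 4 were higher and 4 lower in PC3 than in 22Rv1. Of all genes, 43.2%, 54.7% and 54.9% passed in these comparisons, in either direction. The ubiquitin receptor ADRM1 was higher at each step, from 200 to 231 CPM in LNCaP over 290 to 354 CPM in 22Rv1 to 437 to 519.9 CPM in PC3 (1.08 from LNCaP to PC3, SE 0.132, adjusted p = 2.95e-08). The core assembly factor POMP (1.06), the small lid subunit SEM1 (1.10) and AKIRIN2, which brings proteasomes into the nucleus (1.28), were also higher in PC3 than in LNCaP. The deubiquitinase UCHL5, which binds ADRM1, went the other way (12.6 to 14.5 CPM in PC3, 28.2 to 35.8 CPM in LNCaP, −1.18, SE 0.278), as did the adaptor ECPAS (−1.20). None of the 10 passed for siMED12 in any line.

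In the NFE2L1 route 4 of 10 genes were higher in PC3 than in LNCaP (NFE2L1, the small MAF genes MAFF and MAFG, and the unfolding ATPase VCP), where 29.2% of all genes were higher. From LNCaP to 22Rv1, 4 were higher (DDI2, MAFF, MAFG and SYVN1) and NFE2L2 lower, and from 22Rv1 to PC3, NFE2L1 and NFE2L2 were higher and DDI2 and SEL1L lower. Of all genes, 43.2% and 54.9% passed in these comparisons. SYVN1 did not pass in several fits, among them DESeq2 (adjusted p = 0.082) and that without 22Rv1 siCtrl replicate 3 (0.556), nor did MAFG in the latter (0.0592). SEL1L missed the threshold in DESeq2 (0.0545) and some fits with a library left out (up to 0.155). NFE2L2 from 22Rv1 to PC3 missed it without PC3 siCtrl replicate 1 (0.102). Of the 4 higher in PC3 than in LNCaP, MAFF, MAFG and VCP each missed the threshold in some fits with a library left out (0.0524 to 0.131 for MAFF, 0.0624 to 0.121 for MAFG and 0.0561 for VCP without PC3 siCtrl replicate 1). MAFF also missed it in DESeq2 (0.0969) and over all genes with a count (0.0644). NFE2L1 itself measured 44.7, 50.1 and 43.5 CPM in LNCaP, 44.2, 45.1 and 56.5 CPM in 22Rv1 and 114.8, 64.1 and 85.25 CPM in PC3. PC3 lay above both without overlap (0.92 over LNCaP, SE 0.253, adjusted p = 0.0027, and 0.83 over 22Rv1, adjusted p = 0.0059), but the difference from 22Rv1 missed the threshold without PC3 siCtrl replicate 1 (0.0744). Its paralog NFE2L2 was lower in 22Rv1 than in LNCaP (−0.90, SE 0.211). Of the 11 ubiquitin genes and shuttle factors, 3, 2 and 1 were higher and 0, 2 and 2 lower from LNCaP to 22Rv1, LNCaP to PC3 and 22Rv1 to PC3. Among all genes, 43.2%, 54.7% and 54.9% passed in either direction. The autophagy receptor SQSTM1 stood at 271 to 322 CPM in LNCaP and 2139 to 2933 CPM in 22Rv1 (3.06, SE 0.134).

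SQSTM1 fell after siMED12 in 22Rv1. It measured 2139, 2164 and 2933 CPM in 22Rv1 siCtrl and 1689 and 1708 CPM in siMED12 (−0.51, SE 0.134, adjusted p = 0.0406), without overlap. It did not pass in 4 of the 7 other settings, DESeq2 (adjusted p = 0.0718), limma (0.0953), at least 10 counts in every library (0.0517) and the legacy edgeR fit (0.0505), or without 22Rv1 siCtrl replicate 3 (0.265), 22Rv1 siMED12 replicate 1 or 3 (0.271 and 0.187) or PC3 siMED12 replicate 3 (0.0522).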

How the data were processed

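The 16 libraries were grouped by their labels into 6 groups (3 lines, siCtrl or siMED12). Per the labels and the study's methods, the authors made BRB-seq libraries and aligned and counted the reads with STARsolo (version not given in the sources used here) on Gencode 43, GRCh38.p13. The deposited count table holds raw counts for 62703 genes, and whether molecular identifiers were collapsed is not given in the sources used here. The deposited log2 table holds log2 CPM of 10566 genes, which was recomputed from the counts to within 5e-14 with the edgeR expression filter, TMM scaling and a prior count of 2.

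Tests used R 4.3.3 and the quasi-likelihood test of edgeR 4.0.16 on the counts (minimum count 10, minimum total 15, TMM), in 1 fit of 6 group means over all 16 libraries and 10566 genes, two-sided, with Benjamini-Hochberg adjustment over all genes of a contrast and a threshold of 0.05. The SE is the log2 fold change divided by the root of its F statistic, and intervals are 95%. The scripts were tested on simulated counts. DESeq2 1.42.0, limma 3.58.1 on the log2 CPM, RLE scaling, other filters, a replicate block and leaving out each library were alternatives. The legacy edgeR fit was added after seeing the data.

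Named are members past the threshold in any contrast, PSMB5, PSMB6, PSMB7, PSMD14, PSMD2 and PSMD4 in every line, the members with the highest and lowest effect in each particle and line, and the 3 highest and 3 lowest siCtrl levels; of the other lists, genes past the threshold, except results that are not reported here. MED12 is given as the target. The members and lists were chosen with earlier results of these data known. Gene coordinates are those of Gencode 44, matched by gene identifier, and those of the promoter sequences follow RefSeq.

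Replicate numbers come from the labels. Deviations of same-numbered siCtrl and siMED12 libraries from their group means correlated (r = 0.177, 0.132 and 0.135 in LNCaP, 0.190 and 0.253 in 22Rv1, 0.117 and 0.0787 in PC3), so the numbers may pair the samples of each line. The main test treated the libraries as unpaired, and the replicate block was the alternative that used the numbers. The study's methods give at least 3 biological replicates per experiment unless noted otherwise, while the labels do not tie these libraries to separate cultures, so p-values measure the spread between these samples, which may in part be technical. Totals of 479118 to 993807 counts limit precision: a gene at 0 could hold up to 3 counts, 3.02 to 6.26 CPM.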

Additional observations from a re-analysis of the deposited data

Results flagged for a closer look

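For PSMA4, an alpha subunit of the core particle, siMED12 libraries lay above all siCtrl libraries in LNCaP and below all of them in PC3. The difference between the effects, PC3 minus LNCaP, was −0.93 on the log2 scale (SE 0.285, unadjusted p = 0.00275), and the edgeR interaction test did not pass after adjustment over all genes (adjusted p = 0.746). PSMC6, an ATPase of the base, lay above siCtrl in 22Rv1 (124 and 135 CPM against 83.6 to 121 CPM) and below it in PC3 (190.8 and 225.5 CPM against 230 to 246 CPM). Its difference, PC3 minus 22Rv1, was −0.46 (SE 0.236, unadjusted p = 0.0628, adjusted p = 0.589). Each was the only member of its pair of lines with such a pattern. Of all genes, siMED12 libraries lay above siCtrl without overlap for 5.89% in LNCaP and 13.8% in 22Rv1, and below it for 11.9% in PC3. The share of all genes with opposite patterns in a pair of lines was not counted, so these patterns cannot be called particular to these members.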

How the results depend on the processing

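The 7 other settings and the 16 fits without a library gave 0 members called in every siMED12 comparison. Between lines they gave 11 to 14 members from LNCaP to 22Rv1 (10 to 14 without a library), 23 to 25 from LNCaP to PC3 (22 to 26) and 17 to 20 from 22Rv1 to PC3 (15 to 20). Of 56 member calls between lines, 42 passed in every fit. For genes outside the members, 28 of 45 calls did. The number of all genes that passed for siMED12, the background of those counts, moved more: from 44 to 117 in LNCaP, 194 to 312 in 22Rv1 and 0 to 20 in PC3 with the replicate block, and to as few as 12 in LNCaP without its siMED12 replicate 2 and 74 in 22Rv1 without its siMED12 replicate 1. With the replicate block the count of members called for siMED12 was also 0, the block changed no call of a member, and PSMD14 in 22Rv1 turned to −0.0048. With a library left out, median log2 fold changes ran from −0.15 to −0.00835 for the core siMED12 effect in PC3, from −0.13 to 0.0643 for its difference from 22Rv1, from −0.0879 to 0.11 for core levels from LNCaP to 22Rv1 and from 0.47 to 0.62 for regulatory levels from LNCaP to PC3.

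Effects near 0 turned sign. PSMB7 had 0.0017 in LNCaP and 0.00046 in 22Rv1 with at least 10 counts in every library, and 0.0196 in 22Rv1 over all genes with a count. In LNCaP, values without a library ran from −0.14 to 0.14 for PSMB7, −0.11 to 0.0362 for PSMD14 and −0.13 to 0.17 for PSMD2. In 22Rv1, values without a library ran from −0.0905 to 0.11 for PSMB7, −0.33 to 0.39 for PSMD14 and −0.31 to 0.0138 for PSMD2. In PC3, values without a library ran from −0.17 to 0.0915 for PSMB7 and −0.0495 to 0.15 for PSMD4. The cause was not tested. Depth limits PSMD5, PSME4 and PSMD10, which had under 10 counts in some libraries.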

Other observations

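Among the inducible subunits that the selection left out, PSMB8 was higher in PC3 than in both other lines. PSMB8, which replaces PSMB5 in the immunoproteasome, had 161 counts in the PC3 siCtrl libraries (82.6, 54.7 and 65.0 CPM), 2 in LNCaP and 4 in 22Rv1. PC3 stood far above the other lines, with a count ratio of 74.7 to LNCaP (95% exact interval 20.4 to 622) and 35.7 to 22Rv1 (13.7 to 133), which cover counting error only. PSMB9, another inducible catalytic subunit, had 18 counts in PC3 against 3 in each of the other lines and did not pass the expression filter. PSME1, a subunit of the interferon-induced activator, was 0.40 higher in PC3 than in LNCaP (SE 0.131, adjusted p = 0.0106), not without LNCaP siCtrl replicate 3 or PC3 siCtrl replicate 2 (0.104 and 0.0983). PSME2, its partner subunit, ran from 13.8 to 25.8 CPM in LNCaP, from 15.04 to 23.1 CPM in 22Rv1 and from 21.7 to 29.7 CPM in PC3, with overlapping lines and no test passed. For siMED12, 0 of the 3 inducible genes tested passed in any line.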
